A study of Rattus norvegicus with 5 samples.

Results

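Aminoacyl-tRNA synthetases are the enzymes that load each transfer RNA with its amino acid. The report covers 36 of their genes in rat retina, out of 25399 genes in the count tables: 20 whose enzymes work in the cytosol and 16 whose enzymes work in mitochondria. They were taken by gene symbol from a list of the family, and each symbol matched exactly 1 gene. The samples were retinas of SD rats studied by droplet single-cell RNA sequencing: a control (0 weeks) and 2, 4 and 8 weeks of diabetes. Diabetes was induced with streptozotocin, a toxin of pancreatic beta cells, at 45 mg/kg, was accepted at a fasting blood glucose above 200 mg/dL, and was followed by food rich in fat and sugar. Control rats received citrate buffer instead of the toxin, so they differ from the others in injection, food and time. Of 5 retinal samples, 4 were used, with 1 library per group, and control replicate 1 was not analysed here. The labels give no age.

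Most synthetases recognise 1 amino acid and join it to the matching transfer RNA, so the ribosome can read the code. Several cytosolic enzymes sit together in a multisynthetase complex held by scaffold proteins, while mitochondria import their own set. Many cytosolic synthetase genes are targets of ATF4, a transcription factor whose translation is favoured when amino acids run short or proteins misfold, through phosphorylation of the initiation factor eIF2. Photoreceptors renew their light-sensing outer segments daily and have a high demand for protein synthesis. For description the cytosolic genes were divided by textbook knowledge into 13 known ATF4 targets (Aars, Cars, Eprs, Gars, Iars, Lars, Mars, Nars, Sars, Tars, Vars, Wars and Yars) and 7 others (Dars, Farsa, Farsb, Hars, Kars, Qars and Rars). The division was made with earlier results of these data known, so it is not independent of the values below.

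ATF4 acts with C/EBP partners at an amino acid response element whose core reads TGATGNAA, or TTNCATCA on the other strand. Promoter windows of 300 bases, 250 before and 50 after the start, were taken from RefSeq (build GRCr8, whose coordinates are not those of the count tables), and 33 of the 36 genes had one. The core was found in 7 of 12 promoters of the ATF4 target list, in 0 of 5 of the other cytosolic genes and in 0 of 16 of the mitochondrial genes. Over all 33469 RefSeq promoters, 3.98% hold it on either strand. All 7 include the exact form TGATGCAA, which 0.795% of all promoters hold, and no other motif was searched. Below are stretches upstream of the start, 5′ to 3′ on the gene's strand, for 3 of the genes that stood lowest in diabetic rods and for Aars, chosen after its match, which lies farther out, was seen. Farsa and Kars, both without a match, follow for contrast, and capitals mark the match. Cars and Lars stood about as low as Tars in 2-week rods (log2 ratios to control of -2.73, -2.66 and -2.67) but are not shown. The match of Cars lies within the transcript, and Lars has none in the window.
Mars (methionyl), chr7:65023754-65023853, minus strand: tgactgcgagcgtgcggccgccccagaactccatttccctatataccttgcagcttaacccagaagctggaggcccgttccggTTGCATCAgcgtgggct
Iars (isoleucyl), chr17:15193653-15193752, minus strand: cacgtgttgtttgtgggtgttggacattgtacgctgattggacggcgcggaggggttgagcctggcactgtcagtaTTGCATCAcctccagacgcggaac
Tars (threonyl), chr2:62114803-62114902, minus strand: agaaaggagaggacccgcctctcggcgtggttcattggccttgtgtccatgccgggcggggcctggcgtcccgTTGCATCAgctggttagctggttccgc
Aars (alanyl), chr19:55908332-55908431, plus strand: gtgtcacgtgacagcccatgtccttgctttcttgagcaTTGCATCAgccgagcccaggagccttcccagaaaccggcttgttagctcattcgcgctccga
Farsa (phenylalanyl, alpha subunit), chr19:40205824-40205923, minus strand: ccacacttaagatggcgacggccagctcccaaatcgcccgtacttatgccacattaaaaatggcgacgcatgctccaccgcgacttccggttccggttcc
Kars (lysyl), chr19:56886084-56886183, minus strand: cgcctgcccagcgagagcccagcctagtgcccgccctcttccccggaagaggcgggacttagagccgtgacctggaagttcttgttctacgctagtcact

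The match begins 17, 24 and 27 bases before the start in Mars, Iars and Tars. In Nars it begins 14 bases before the start, and in Aars 112 bases before it with another match at base 10 of the transcript. In Cars and Yars it lies within the transcript, from bases 18 and 39. Eprs, Lars, Sars, Vars and Wars had no match in the window, and no window was at hand for Gars, Dars and Rars. A match is a description of these letters, and its absence says nothing about binding of the factor elsewhere.

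After filtering and removal of predicted doublets, 6823, 10984, 7689 and 4283 cells remained for control and 2, 4 and 8 weeks, with a median of 902 to 1408 unique molecular identifiers (UMIs, each 1 captured transcript) per cell. Libraries shared 27 to 71 barcodes with another library. Clusters were named from marker genes, and 6 classes held at least 50 cells in every library: rods (3053 to 7743 cells), Müller glia (152 to 401), bipolar (251 to 919), amacrine (107 to 198) and cone cells (57 to 173) and microglia (79 to 222). Levels below are UMIs per 1000000 UMIs of the class (CPM), with no scaling by transcript length. Where 4 levels stand in a row, they belong to the control, 2-, 4- and 8-week libraries in that order. With 1 library per group no test between groups was possible. Ratios carry exact 95% intervals of counting error only, so group, animal, age and preparation cannot be told apart. All 3 diabetic libraries were set against the same control library.

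In rods, the transcripts of the 13 ATF4 target synthetases were far less abundant in the 2- and 4-week libraries than in control. Their summed level was 3465 CPM in control, 811 at 2 weeks, 1246 at 4 weeks and 2470 at 8 weeks. The log2 ratio of the sum to control was -2.10 (95% interval -2.13 to -2.06) at 2 weeks, -1.48 (-1.51 to -1.44) at 4 weeks and -0.49 (-0.52 to -0.46) at 8 weeks. At 2 weeks 12 of 13 stood at least 1.5-fold lower than control, and so did 27.9% of the 5940 genes used in rods. At 4 weeks it was 11 of 13 against 12.4% of genes, and at 8 weeks 3 of 13 against 1.30%. None of the 13 was 1.5-fold higher at any of the 3 times, as 7.53%, 8.35% and 2.24% of genes were. The median log2 ratio of the list was -2.17, -1.37 and -0.41 at 2, 4 and 8 weeks, and that of all genes -0.27, 0.03 and 0.01.

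**Figure D1:**
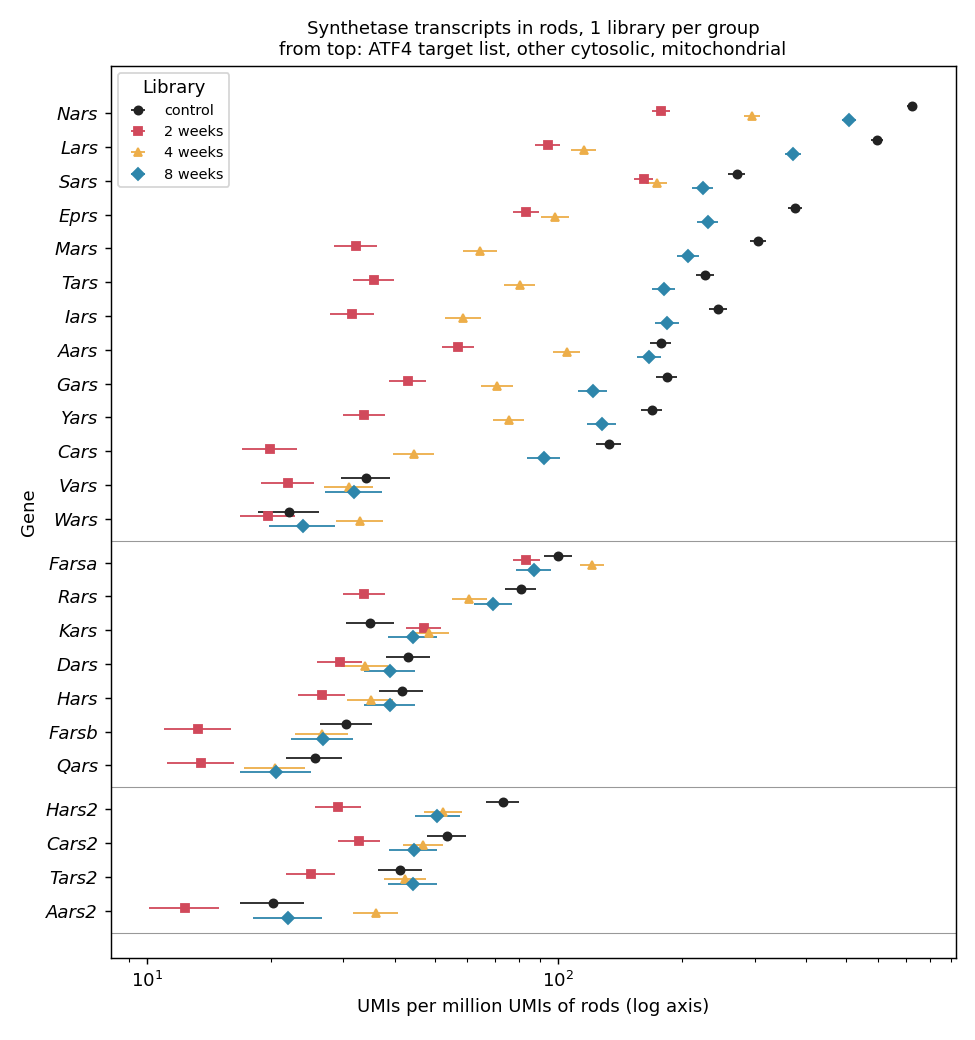
Level of the 24 synthetase genes used in rods (CPM, log axis), with 1 point per library and exact Poisson 95% intervals as bars. The control and 2-week points lie farthest apart for Mars (-3.25 on the log2 scale), and closer together for Sars, Vars and Wars than for the other 10 genes of the ATF4 target list.

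Nars, the asparaginyl enzyme and the most abundant synthetase transcript in rods, was at 724 CPM in control, 178 at 2 weeks, 295 at 4 weeks and 509 at 8 weeks. Lars, the leucyl enzyme, which also senses leucine for the mTORC1 kinase, was at 596, 94.1, 115 and 372 CPM. For both genes the 4 libraries lay in the order 2, 4 and 8 weeks and control, with no overlap of their intervals. The log2 ratio of Lars was -2.66 (-2.78 to -2.55) at 2 weeks and -2.37 (-2.48 to -2.26) at 4 weeks, and that of Nars was -2.02 and -1.29.

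The lowest ratio of any member belonged to Mars, whose enzyme charges the transfer RNA that starts every protein as well as the one used within proteins. Its levels were 306, 32.1, 64.6 and 207 CPM, a log2 ratio of -3.25 (-3.44 to -3.07) at 2 weeks. Iars, the isoleucyl enzyme, followed the same order at 245, 31.5, 58.6 and 184 CPM, with -2.96 (-3.15 to -2.77). Mars had 1910 UMIs in control rods and 273 in 2-week rods, and Iars 1527 and 268.

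Cars, the cysteinyl enzyme, was at 132, 19.9, 44.4 and 92.0 CPM. Tars, the threonyl enzyme, was at 227, 35.6, 80.5 and 180 CPM. Yars, the tyrosyl enzyme, was at 168, 33.6, 75.8 and 127 CPM. In each of these the 2-week level was 5.01 to 6.65 times below control and the 8-week level was the nearest to it.

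Eprs, a single protein that charges both glutamate and proline, was at 377, 83.5, 98.2 and 231 CPM. Gars, the glycyl enzyme, which is changed in an inherited neuropathy, was at 184, 43.0, 70.9 and 121 CPM. Aars, the alanyl enzyme, was at 177, 57.0, 105 and 166 CPM. Aars was the member of this group that came nearest to control at 8 weeks, with a log2 ratio of -0.09 (-0.23 to 0.04), while Eprs remained at -0.71 (-0.81 to -0.60).

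The other 3 genes of the ATF4 target list differed less. Sars, the seryl enzyme, was at 271, 161, 174 and 224 CPM, with -0.75 (-0.86 to -0.65) at 2 weeks. Vars and Wars, the valyl and tryptophanyl enzymes, were chosen for mention after their values were seen. Vars was at 34.0, 21.99, 30.9 and 31.8 CPM, and Wars at 22.1, 19.6, 32.9 and 23.9 CPM. Wars is therefore the exception of the list: its 2-week interval spans 0 (-0.51 to 0.16), and at 4 weeks it stood above control (0.57, 0.26 to 0.89). Vars and Wars were also the least abundant of the 13 in rods.

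The order 2 weeks, 4 weeks, 8 weeks and then control, from lowest to highest, was shown by 12 of 13 ATF4 target synthetases and 5 of 7 other cytosolic ones. Of all genes used in rods, 14.8% had it. The 2-week library held the lowest level of all 13 genes of the list, and of 54.9% of all genes, so a part of that order is shared with other transcripts. Control was highest for 12 of 13, against 25.9% of genes. With the 2-week library as the reference, 12, 9 and 10 of 13 were at least 1.5-fold higher in the control, 4- and 8-week libraries. Of all genes, 27.86%, 21.45% and 26.85% were.

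The 7 other cytosolic synthetases had smaller ratios in rods. Their summed level was 356, 247, 346 and 326 CPM. At least 1.5-fold lower were 4 of 7 at 2 weeks, against 27.9% of genes, and 0 of 7 at 4 and 8 weeks, against 12.4% and 1.30%. With TMM scaling the 2-week count was 2 of 7, and the share of all genes under that scaling is not given here. Their medians were -0.64, -0.25 and -0.19. The values of single genes that follow were chosen for mention after they were seen. Rars, the arginyl enzyme, was at 80.9, 33.6, 60.7 and 69.4 CPM, with -1.26 (-1.48 to -1.05) at 2 weeks. Farsb, the beta subunit of the phenylalanyl enzyme, was at 30.5, 13.3, 26.7 and 26.7 CPM, and its partner subunit Farsa at 99.8, 83.6, 121 and 87.1 CPM. The subunits of this 1 enzyme thus had 2-week ratios of -1.20 (-1.55 to -0.85) and -0.26 (-0.41 to -0.10).

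Kars, the lysyl enzyme, whose gene also encodes the mitochondrial form, stood above control at every time. It was at 34.8, 47.0, 48.6 and 44.3 CPM, with log2 ratios of 0.43, 0.48 and 0.35. All 3 intervals lay above 0, although each ratio was under 1.5-fold. Within single rod clusters its 2-week ratios ran from -0.31 to 0.49, and each of those intervals spanned 0. The 4-week ratios there ran from -0.046 to 0.37, and the 8-week ones from 0.12 to 0.94. Qars, Hars and Dars, the enzymes for glutamine, histidine and aspartate, had 2-week ratios of -0.91, -0.64 and -0.55 and intervals reaching above 0 at 8 weeks. Qars, counted among the genes at least 1.5-fold lower at 2 weeks, averaged 20.02 CPM. It passed the filter of 20 CPM only through its control level of 25.5 CPM.

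Mitochondrial synthetases were sparse: 4 of 16 passed the abundance filter in rods, the other 12 averaged at most 16.04 CPM, and Mars2 had no UMI in any class. The 16 together were at 325, 181, 279 and 294 CPM. Hars2, the mitochondrial histidyl enzyme, was at 73.3, 29.2, 52.4 and 50.8 CPM, with -1.33 (-1.56 to -1.10) at 2 weeks. Cars2, Tars2 and Aars2, chosen for mention after their values were seen, had 2-week ratios of -0.70, -0.72 and -0.71. Aars2 stood above control at 4 weeks (0.83, 0.52 to 1.15). It averaged 22.64 CPM and passed the filter of 20 CPM only through its 4-week level of 35.98 CPM. Its 4-week ratio is therefore not independent of the filter. All 4 mitochondrial genes used, Aars2 included, were at least 1.5-fold lower at 2 weeks, against 27.9% of genes. At 4 and 8 weeks it was 0 of 4, against 12.4% and 1.30%. At least 1.5-fold higher were 0, 1 and 0 of 4 at 2, 4 and 8 weeks, against 7.53%, 8.35% and 2.24%. The gene counted as higher at 4 weeks was Aars2. With TMM scaling the 2-week count of lower genes was 1 of 4, again without a share of all genes under that scaling. Among 13 pairs of genes whose symbols differ only by the suffix 2, the cytosolic transcript averaged higher in 12 in rods. The exception was Hars at 35.5 and Hars2 at 51.4 CPM. Fars2, Ears2 and Pars2 have no partner of that name and were left out.

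Compared with the other 5 classes, it was the control and 8-week rods that stood apart. The ATF4 target list summed to 858, 810, 935 and 987 CPM in Müller glia. It was 1101, 756, 959 and 1366 CPM in bipolar cells and 1097, 1075, 1244 and 1190 CPM in amacrine cells. Cones had 1031, 728, 951 and 1108 CPM, and microglia 557, 578, 439 and 591 CPM. In control, rods were the highest class for 11 of the 13 genes, and at 2 weeks for 1 of 13, Lars. Iars in control rods was 6.28 times its highest other class, Lars 5.63 times and Sars 1.08 times. For the 7 other cytosolic genes rods were the highest class for 0 of 7 in control and at 2 weeks. For the 16 mitochondrial genes they were so for 7 in control and 3 at 2 weeks. The share of all genes with rods as the highest class is not given here, so these counts have no background.

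**Figure D2:**
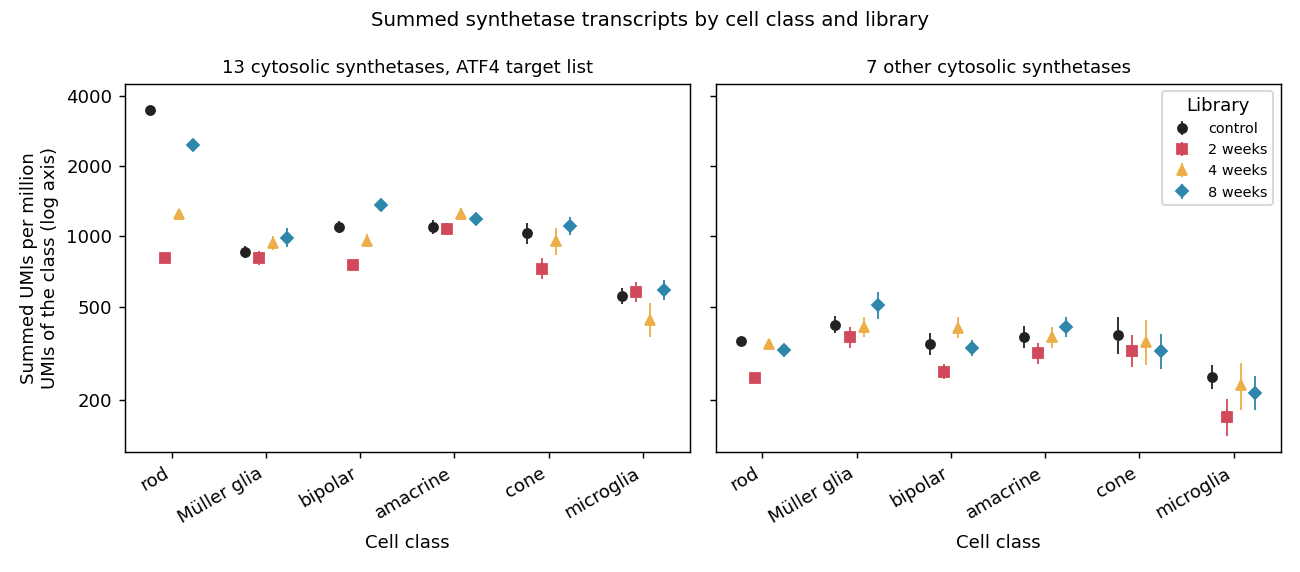
Summed level of the 13 ATF4 target synthetases (left) and the 7 other cytosolic ones (right) by cell class and library, in CPM on a log axis, with exact Poisson 95% intervals. The control and 8-week rods lie above every other class on the left, and the 2-week rods lie among the other classes.

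Ratios to control followed these levels. Over the 5 other classes the summed list had log2 ratios between -0.54 and 0.06 at 2 weeks, -0.34 and 0.18 at 4 weeks, and 0.09 and 0.31 at 8 weeks. Each of these lies above the rod value of the same time. At 8 weeks rods were below control while the other 5 classes were above it. The 8-week intervals of amacrine cells, cones and microglia reached below 0. In bipolar cells rod RNA was estimated at 36.0% of UMIs at 8 weeks and 10.9% in control. With it subtracted, the 8-week median of the list in bipolar cells was below 0, as given below. The difference between classes was not tested, since each has 1 library per group.

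In Müller glia 1 of 11 used genes of the list was at least 1.5-fold lower at 2, 4 and 8 weeks alike, against 7.42%, 8.86% and 6.01% of genes. At least 1.5-fold higher were 0, 1 and 1 of 11, against 10.2%, 10.6% and 10.1%. The most abundant, Sars, was at 203, 222, 221 and 239 CPM, and Nars at 115, 108, 121 and 128 CPM, with overlapping intervals in all 4 libraries. Qars, the glutaminyl enzyme, was at 84.4, 43.3, 54.6 and 106 CPM, a log2 ratio of -0.95 (-1.51 to -0.45) at 2 weeks. Hars2 was at 21.7, 29.2, 44.1 and 26.6 CPM, on 12 to 42 UMIs. RNA from rods, estimated from rod marker genes that glia should lack, made up at most 12.8% of the UMIs of this class.

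In amacrine cells, where rod RNA was estimated at 2.99 to 5.68% of UMIs, 2, 0 and 0 of 13 were at least 1.5-fold lower at 2, 4 and 8 weeks, against 6.17%, 6.70% and 3.93% of genes. Nars was at 264, 290, 307 and 288 CPM and Sars at 252, 263, 242 and 260 CPM. These were the most abundant members in this class too, and the intervals of each overlapped across the 4 libraries. Qars was at 50.9, 22.7, 19.0 and 45.2 CPM, with -1.15 (-1.93 to -0.43) at 2 weeks and -1.40 (-2.31 to -0.60) at 4 weeks. Eprs was at 129, 75.9, 94.7 and 114 CPM, with -0.76 (-1.19 to -0.34) at 2 weeks. At least 1.5-fold higher were 1, 4 and 1 of 13, against 10.9%, 10.9% and 6.43% of genes, and Yars at 4 weeks had the highest ratio (0.82, 0.31 to 1.37).

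Bipolar cells had a lower summed list at 2 weeks as well. Their mix of clusters differed between libraries: a cluster led by Pcp2 and Car8 held 8 of 251 control cells, 142 of 919 at 2 weeks, 22 of 291 at 4 weeks and 70 of 349 at 8 weeks, and its part in these values was not tested. At least 1.5-fold lower were then 8 of 13 genes of the list and 4 of 7 other cytosolic genes, against 6.73% of genes. At 4 and 8 weeks it was 2 and 1 of 13, against 7.43% and 6.69%. At least 1.5-fold higher were 0, 0 and 3 of 13, against 8.65%, 11.6% and 16.1%. Nars was at 230, 158, 192 and 275 CPM, Mars at 72.4, 28.4, 36.3 and 93.0 CPM and Iars at 32.6, 25.2, 35.3 and 82.4 CPM. The 8-week level was the highest of the 4 for each of these. RNA from rods made up an estimated 10.9, 14.7, 12.9 and 36.0% of bipolar UMIs in the 4 libraries. With that rod RNA subtracted, the 2-week median of the list changed from -0.66 to -0.16, its count of genes at least 1.5-fold lower from 8 to 3, and the 8-week median from 0.28 to -0.08. The 7 other cytosolic genes then had a 2-week median of -0.62 and a count of 4. The share of all genes after this subtraction is not given here.

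Cones had few UMIs, and 5 of 8 used genes of the list were at least 1.5-fold lower at 2 weeks, against 8.69% of genes. At 4 and 8 weeks it was 2 and 1 of 8, against 10.9% and 7.38%. At least 1.5-fold higher were 0, 0 and 1 of 8, against 12.2%, 10.6% and 8.80%. Eprs was at 124, 57.5, 64.0 and 157 CPM, with -1.10 (-1.84 to -0.39) at 2 weeks, and Mars at 84.6, 34.5, 64.0 and 81.9 CPM, with -1.28 (-2.24 to -0.39). Mars rests on 18 UMIs at 2 weeks, and at 8 weeks the intervals of both genes spanned 0. Rod marker genes were at 27.3 to 40.5% of their rod level in cones, so a rod share of these values cannot be told apart from the cones' own.

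In microglia the summed list was lower than in the other 5 classes in every library. At least 1.5-fold lower were 2, 4 and 0 of 9 used genes at 2, 4 and 8 weeks, against 8.65%, 14.3% and 9.23% of genes, and higher 0, 2 and 1 of 9, against 21.3%, 17.5% and 6.59%. The microglia came from different clusters. One led by the chemokine genes Ccl4 and Ccl3 held 79 of 204 control cells, 102 of 222 at 2 weeks, 8 of 79 at 4 weeks and 48 of 160 at 8 weeks. Another, led by C1qc, held 64, 1, 34 and 40, and the part of this mix was not tested. At 4 weeks, with 79 cells, Mars, Lars and Eprs had log2 ratios of -1.84 (-3.64 to -0.67), -1.06 (-2.24 to -0.16) and -1.03 (-2.04 to -0.22). Gars was higher there (1.61, 0.63 to 2.59). These 4 values rest on 5, 10, 13 and 19 UMIs of the 4-week library. Rod RNA was estimated at 3.96 to 17.2% of microglial UMIs, highest at 2 weeks.

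**Figure D3:**
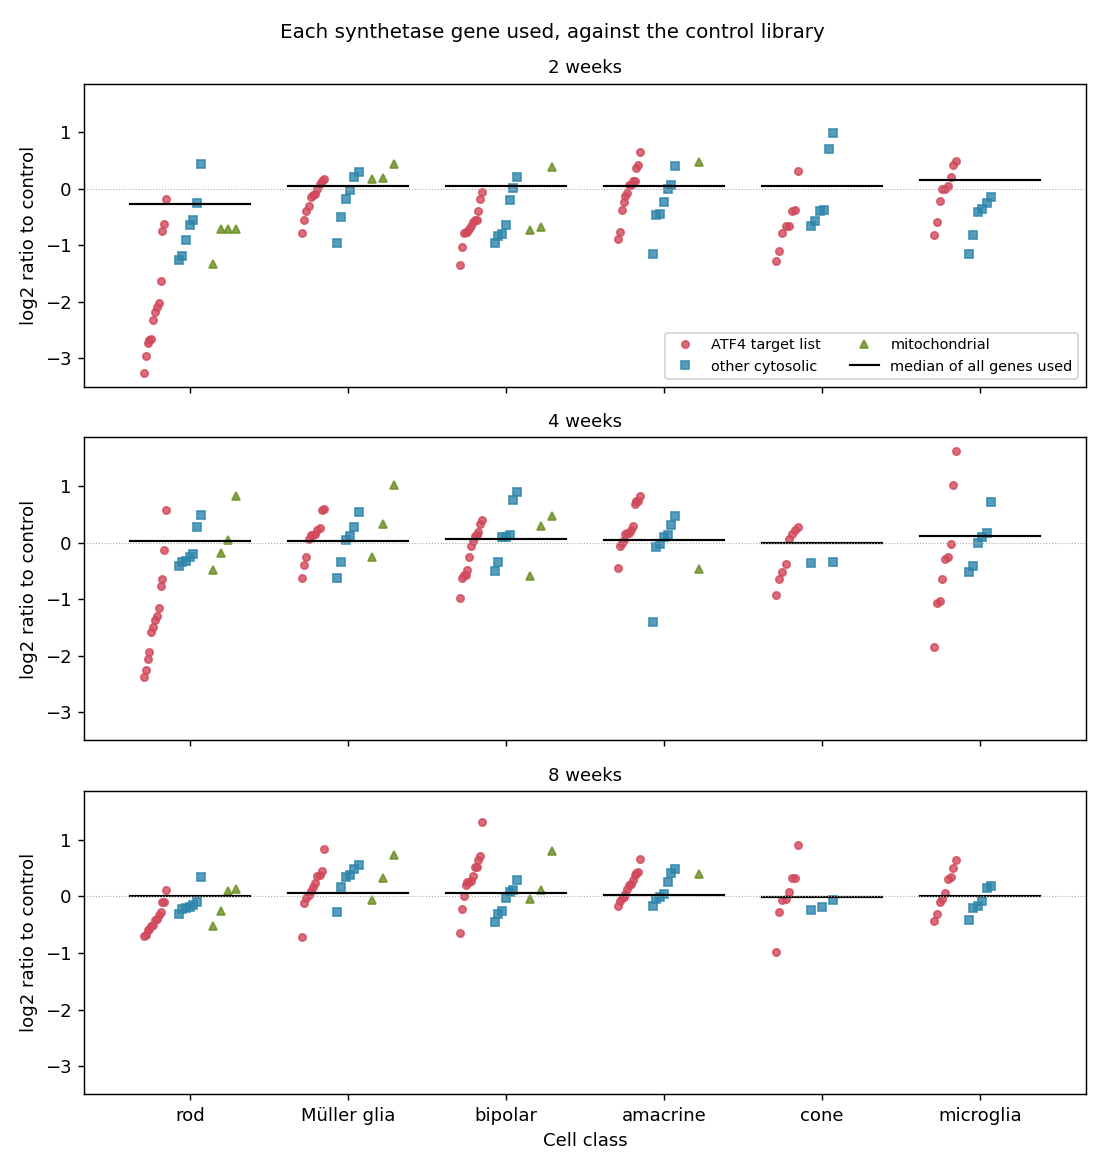
Log2 ratio to the control library of each synthetase gene used, by class (columns) and time (panels), with a black line at the median of all genes used in that class. In rods the ATF4 target genes reach -3.25 at 2 weeks and -2.37 at 4 weeks, while in Müller glia and amacrine cells at 2 weeks they spread from -0.89 to 0.66.

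Depth, mitochondrial share and other cells' markers in rods were set beside these levels. Rods had medians of 867, 867, 845 and 1027 UMIs, and 2.88, 6.61, 1.83 and 3.11% mitochondrial UMIs. Limited to cells with at most 10% mitochondrial UMIs, the list had a 2-week median of -2.14, and with cells thinned to 1000 UMIs -2.09. Summed markers of Müller glia in rods were at 149, 87.8, 40.7 and 85.5 CPM, of amacrine cells at 175, 81.4, 87.8 and 122 CPM, and of red blood cells at 764, 301, 181 and 322 CPM. All 3 were highest in control, as were those of microglia (26.2 to 70.3 CPM), while those of bipolar (210 to 449 CPM) and cone cells (42.2 to 199.5 CPM) were highest at 8 weeks. The part of these markers in the result was not tested.

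Rods fell into several clusters, in each of which 1 library gave most cells. In the 6 rod clusters with at least 30 cells in both libraries, the summed ATF4 target list had 2-week log2 ratios of -2.20 to -1.78 and 4-week ratios of -1.58 to -1.25. In 5 such clusters the 8-week ratios were -0.60 to -0.25. Every one of these intervals lay below 0. These clusters were themselves built on genes that include ATF4 targets. No single rod gave more than 5.41% of the UMIs of a member with at least 30 UMIs.

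Rods could also be divided by whether they carried a UMI of 6 other ATF4 targets (Asns, Trib3, Chac1, Sesn2, Atf3 and Ddit3). Thinning to 1000 UMIs left out 3268, 4753, 4418 and 1483 shallower rods, 48.6 to 67.6% of them. Of the remaining 2121, 2990, 2115 and 1570 rods, 83.8, 21.3, 42.2 and 75.0% had such a UMI. Without thinning it was 78.4, 22.7, 42.6 and 75.2% of all rods. In Müller glia thinned in the same way the share was 9.34 to 15.7%, and in the 4 other classes 19.5 to 45.2%. Median depth before thinning was at most 1734 UMIs in these rods and 2528 to 3410 in Müller glia. No class is known to lack these transcripts. Within a library the synthetase level differed little between these rods. The 13 genes summed to 3603 CPM in control rods with such a UMI and 3137 CPM in those without, and to 779 and 805 CPM at 2 weeks. The log2 ratios of with to without were 0.20 (0.11 to 0.29) in control, -0.05 (-0.19 to 0.10) at 2 weeks, 0.11 at 4 weeks and 0.14 (0.04 to 0.25) at 8 weeks. A rod without such a UMI may still hold the transcripts, so the division is by UMIs detected.

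**Figure D4:**
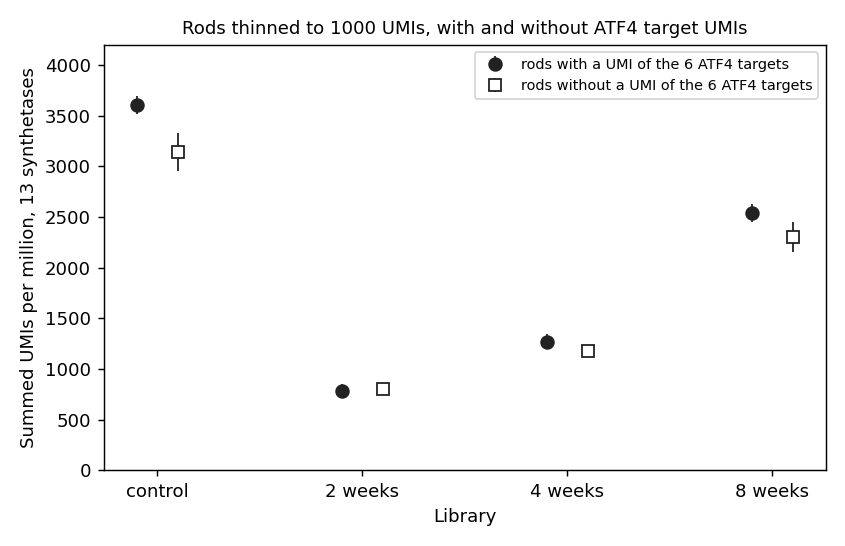
Summed level of the 13 ATF4 target synthetases in rods thinned to 1000 UMIs, with (filled) and without (open) a UMI of 6 other ATF4 targets, by library, with exact Poisson 95% intervals. The pair of points within each library is close, between 779 and 805 at 2 weeks and between 3137 and 3603 in control.

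The 8 enzyme genes of the complex in the list used (Dars, Eprs, Iars, Kars, Lars, Mars, Qars and Rars) summed to 1708, 365, 500 and 1167 CPM in rods, and 6, 4 and 2 of 8 were at least 1.5-fold lower at 2, 4 and 8 weeks, against 27.9%, 12.4% and 1.30% of genes. The 4 that were lower at 4 weeks were Eprs, Iars, Lars and Mars, all of the ATF4 target list, and at 2 weeks Qars and Rars were lower as well. Qars passed the abundance filter only through its control level, as given above. Dars (-0.55) was not 1.5-fold lower at 2 weeks, and Kars stood above control. The 3 scaffold genes, which hold the enzymes together, summed to 266, 248, 332 and 275 CPM. At 2, 4 and 8 weeks 0 of 3 was 1.5-fold lower, against the same 27.9%, 12.4% and 1.30% of genes. So few genes allow no contrast with the enzymes. Aimp1 was at 140, 126, 175 and 153 CPM, Aimp2 at 38.3, 26.8, 42.9 and 36.7 CPM, and Eef1e1 at 87.6, 95.9, 114 and 84.7 CPM. Aimp2 had the lowest ratio of the 3, -0.52 (-0.78 to -0.25) at 2 weeks.

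Downstream of the synthetases, elongation factors carry the charged transfer RNA to the ribosome. Their summed level in rods was 833, 847, 825 and 860 CPM, and 1 of 7 used genes was at least 1.5-fold lower at 2 weeks, against 27.9% of genes. Eef2, the translocase, was at 206, 206, 252 and 241 CPM, and Eef1b2, an exchange factor, at 134, 199, 146 and 133 CPM. Of 11 genes of transfer RNA export, maturation and editing, 4 were at least 1.5-fold lower and 1 higher at 2 weeks, against 27.9% and 7.53% of genes. At 4 weeks 0 were lower and 2 higher, against 12.4% and 8.35%. Aarsd1, which clears wrongly charged alanyl transfer RNA, was at 239, 281, 300 and 229 CPM.

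The other ATF4 targets spread over a wider range than the synthetases. Of 14 used, 13, 12 and 4 were at least 1.5-fold lower in rods at 2, 4 and 8 weeks, against 27.9%, 12.4% and 1.30% of genes, with medians of -1.90, -0.94 and -0.36. Asns, asparagine synthetase, was at 269, 9.64, 17.9 and 210 CPM, and Sesn2, a leucine sensor, at 217, 9.52, 31.8 and 148 CPM. Trib3, a pseudokinase that dampens the response, was at 404, 19.4, 204 and 262 CPM, and Ddit3, the stress factor CHOP, at 574, 187, 310 and 624 CPM. Chac1, which degrades glutathione, was at 183 CPM in control rods and had 3 UMIs in 2-week rods, a log2 ratio of -8.80 (-11.30 to -7.47). All 13 synthetases had 2-week ratios above those of Asns, Sesn2, Trib3 and Chac1, and 10 of them lay below that of Ddit3 (-1.62).

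Atf4 itself differed much less, at 2936, 2076, 2756 and 2300 CPM, with a 2-week log2 ratio of -0.50 (-0.53 to -0.47). Amino acid transporters, which supply the substrates, had 6, 6 and 3 of 7 at least 1.5-fold lower, against the same shares. Slc3a2, the heavy chain of several of them, was at 682, 309, 338 and 468 CPM, and Slc38a2, a carrier of neutral amino acids, at 568, 46.4, 232 and 356 CPM. Of 11 used genes of the eIF2 kinases, phosphatase subunits and eIF2B, 4, 1 and 0 were at least 1.5-fold lower, close to the 27.9%, 12.4% and 1.30% of all genes. Eif2s1, the phosphorylated subunit, was at 87.6, 83.2, 99.1 and 83.6 CPM, and Ppp1r15b, a phosphatase subunit, at 159, 55.6, 123 and 167 CPM.

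The promoter matches were set beside the rod ratios. The 7 synthetases with a match had a median 2-week log2 ratio of -2.67, from -3.25 in Mars to -1.64 in Aars. The 5 genes of the ATF4 target list without one had a median of -0.75, and included Lars at -2.66 and Eprs at -2.17. The 5 other cytosolic genes with a window, all without a match, had a median of -0.64. Lars and Eprs thus stood as low as genes with a match, and no gene with a match stood above -1.64.

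**Figure D5:**
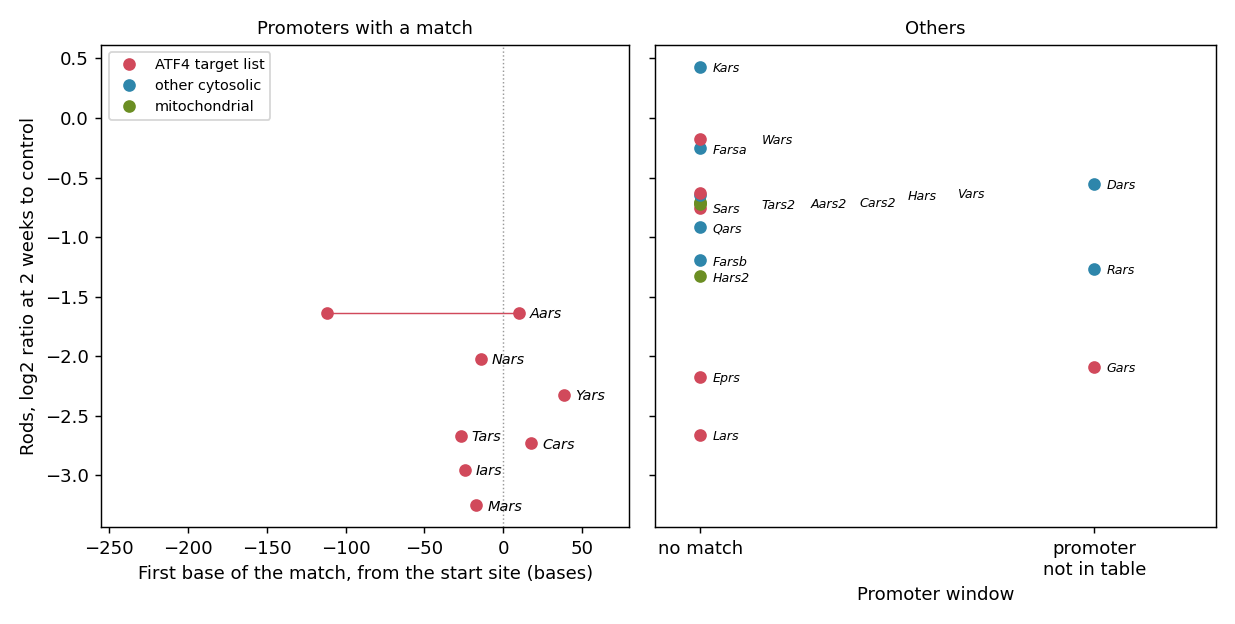
Log2 ratio of 2-week to control rods for the 24 synthetase genes used, against the distance of the response element match from the start site (left), or for genes without a match or without a promoter in the table (right). The matched genes lie between -3.25 and -1.64, and Lars, Eprs and Gars lie in the same range on the right.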

How the data were processed

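Sums of synthetase transcripts were taken from raw counts of UMIs per gene and cell barcode, as deposited by the authors for the control, 2-, 4- and 8-week libraries. Cell Ranger 3.0.1 and the build Rnor_6.0 come from the submitters' processing notes. The annotation release is not given in the sources used here. Barcodes under 200 genes or above 20% mitochondrial UMIs were left out, and every deposited barcode had 500 UMIs or more. Scrublet (scanpy 1.11.5) scores were used to remove the top 0.8% per 1000 barcodes. Kept cells were clustered jointly (2000 variable genes, 30 principal components, 15 neighbours, leidenalg 0.10.2, resolution 1.0), giving 30 clusters. A cluster took a class name from marker lists or stayed unnamed (207 to 571 cells per library), so class names are rebuilt and may differ from the study's.

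UMIs were summed per library and class. Log2 ratios of CPM had 0.5 counts added, with exact conditional binomial 95% intervals. A gene was used where its mean over the libraries reached 20 CPM and its UMIs over the pair 30. A synthetase is called lower or higher at 1.5-fold. The interval code was tested on simulated data. Members, lists and the fold were chosen with earlier results of these data known. Named were, per class, the 6 members with the most UMIs and those with the largest ratios, up to 12; of other lists up to 4 with the most UMIs and 6 fixed genes. Alternatives were other mitochondrial limits, doublets kept, TMM scaling (edgeR 4.0.16), other Leiden resolutions, filters and folds, thinning to 1000 UMIs, rod RNA subtracted and other reference libraries. Control replicate 1 was not analysed here.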

Additional observations from a re-analysis of the deposited data

How the results depend on the processing

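With 1 library per group, no alternative can measure the spread between animals. In rods the median log2 ratio of the ATF4 target list was below 0 at each time against the control library in every alternative run. Against the 2-week library it was 0.74 at 4 weeks and 1.54 at 8 weeks, and against the 4-week library 0.78 at 8 weeks. With TMM scaling the 2-week medians were -1.84 for this list, -0.27 for the other cytosolic genes and -0.38 for the mitochondrial genes. That scaling adds 0.33 to every rod ratio at 2 weeks, moves the median of all genes from -0.27 to 0.06, and turns the sign of Farsa and Wars. At least 1.5-fold lower at 2 weeks were then 10 of 13, 2 of 7 and 1 of 4, against 12, 4 and 4. At 2-fold in place of 1.5-fold it was 10, 2 and 1, and for the ATF4 target list 9 at 4 weeks and 0, against 3, at 8 weeks. The shares of all genes under TMM scaling and at 2-fold are not given here, and those of the main setting do not apply to these counts.

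Within single rod clusters the list's 2-week medians that moved were -2.02, -1.92, -1.95 and -1.90, the 4-week ones -1.18, -1.01, -1.68 and -1.07, and the 8-week ones -0.21 and -0.64. The other cytosolic genes had -0.075, -0.22, -0.28 and -0.10 at 2 weeks in 4 clusters and -0.82 and -0.91 in the other two, around -0.64 over all rods. At 4 weeks it was 0.13 in a cluster and 0.33, on 2 genes, in another, where the sign differs from that over all rods. The sign also differed at 8 weeks in clusters with 0.12 and 0.036, on 3 and 4 genes. The mitochondrial genes had -1.34, -0.31 and -0.10 at 2 weeks, 0.26 at 4 weeks and -0.40 at 8 weeks. Their 4-week median, -0.08 on 4 genes, was -0.41 with thinned cells, -0.37 with no filter on low counts and 0.01 with TMM scaling, so its sign is not settled. With no filter, 11 mitochondrial genes were lower at 2 weeks, and the share of all genes without that filter is not given here.

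In bipolar cells the count of 8 lower at 2 weeks was 3 with rod RNA subtracted and 3 with thinned cells, and the 3 higher at 8 weeks ranged from 0 to 6 over the alternatives. In cones the count of 5 lower was 8 with doublets kept. Subtraction of rod RNA gave no usable value in cones, where it took away more than some genes had. The cause of these moves was not tested, and the shares of all genes in these runs are not given here. Depth limits the mitochondrial genes, cones and microglia most. No paired analysis was possible because each group had 1 library.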

Other observations

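Qars, the glutaminyl enzyme, was below control at 2 weeks in the 5 classes where it was used. The log2 ratio was -0.91 in rods, -0.80 in bipolar and -1.15 in amacrine cells, -0.95 in Müller glia and -0.82 in microglia, and each interval lay below 0. The 8-week ratios were -0.31, -0.45, -0.17, 0.34 and -0.41 in that order, each with an interval that spans 0. In rods Qars averaged 20.02 CPM and passed the filter of 20 CPM only through its control level of 25.5 CPM. Its rod ratio to control is therefore not independent of the filter. All 5 classes share the same control library, and the share of all genes below control in each of them is not given here. Farsa in bipolar cells stood at 50.0, 50.7, 93.0 and 61.6 CPM in the control, 2-, 4- and 8-week libraries, and its 4-week ratio was 0.89 (0.37 to 1.43). These values were chosen for mention after they were seen.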
